A study of Mus musculus with 12 samples.

Results

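The genes described here are 8 feedback genes of the RAS-ERK pathway: the phosphatases Dusp6, Dusp4 and Dusp5, the Sprouty genes Spry1 and Spry2, the Sprouty-related genes Spred1 and Spred2, and the transcription factor gene Etv5. They were chosen by symbol, as known feedback targets of receptor kinase signaling. All 8 are among the 12199 genes of the deposited count table and among the 12175 that were tested. RNA-Seq was performed on total RNA of whole BM mononuclear cells from C57BL/6 mice of 4 genotypes. WT mice came from a core facility. DF mice carried Dnmt3a Flox/+ with MxCre and Flt3 ITD/+, TF mice carried Tet2+/- and Flt3 ITD/+, and TFD mice carried Tet2+/-, Flt3 ITD/+ and Dnmt3a Flox/+ with MxCre. Poly(I:C) was given to each group, also to WT, when the mice were 8 to 10 weeks old, and 8 to 9 weeks passed before their marrow was examined. It induces interferon and thereby the MxCre recombinase, which deletes the floxed Dnmt3a allele in blood cells and in other tissues. The TF label names no MxCre, so MxCre and Dnmt3a heterozygosity cannot be told apart between TF and the other mutants. There were 3 libraries each of WT, DF and TF and 2 of TFD, and the third TFD replicate was not analysed here.

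Receptor tyrosine kinases such as Flt3 activate RAS, which switches on the RAF, MEK and ERK kinases in turn. Active ERK raises the transcription of its own inhibitors, so the mRNA of these inhibitors is widely used as a readout of pathway output. The Dusp genes encode phosphatases that remove the activating phosphates from ERK, Sprouty and Spred proteins act at the membrane between the receptor and RAF, and Etv5 is an ETS factor whose gene is held down by the repressor Capicua (Cic) until ERK relieves it. The internal tandem duplication (ITD) makes Flt3 signal without its ligand, and Flt3-ITD is frequent in acute myeloid leukemia together with loss of TET2 or DNMT3A, enzymes of DNA methylation.

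The data came from libraries of 8274153 to 15900904 counted reads, and levels are given as CPM, which are reads scaled to a common library size, here with TMM factors. A gene was called changed at an adjusted p under 0.05 in edgeR's quasi-likelihood test of all 4 genotypes, with Benjamini-Hochberg adjustment across the 12175 genes. The labels do not state that each library is a separate mouse, so p values measure the spread between these libraries. Among all genes tested, 21.0% were called higher and 16.6% lower in DF versus WT, 19.0% higher and 15.6% lower in TF versus WT, and 14.7% higher and 11.6% lower in TFD versus WT. For the mean of the 3 mutant genotypes versus WT the shares were 22.4% and 19.7%. Between mutants, 5.94% were called in DF versus TF, 0% in TFD versus DF and 0.0164% in TFD versus TF. Higher genes made up 55.9% of the calls in DF versus WT with TMM factors and 42.3% with library totals, and 28.1% and 13.9% in DF versus TF. Flt3 rose in each mutant. Tet2 had log2 fold changes of 0.20 in TF and 0.25 in TFD, and Dnmt3a of -0.15 in DF and 0.29 in TFD. None of these 4 was called, whereas Tet2 was called higher in DF (0.49, adjusted p = 0.0261) and Dnmt3a in TF (0.58, adjusted p = 0.0444). Each count sums both alleles over all exons. TF replicate 3 stood apart from the other TF libraries in its cell type markers, as given below.

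Of the 8 feedback genes, 4 were called in each mutant genotype versus WT, 3 lower and 1 higher each time. Among all genes tested, 16.6%, 15.6% and 11.6% were called lower and 21.0%, 19.0% and 14.7% higher in DF, TF and TFD. Spry1 was higher and Etv5 lower in DF, TF and TFD. Dusp4 fell in DF and TFD, Dusp6 in TF and TFD, and Spry2 in DF and TF. Dusp5, Spred1 and Spred2 were not called in any of these comparisons. For the mean of the mutants, Dusp4, Dusp6, Spry2 and Etv5 were lower and Spry1 was higher, against 19.7% lower and 22.4% higher of all genes. The median log2 fold change of the 8 genes versus WT was -0.42 in DF and -0.58 in TF, where that of all genes tested was 0.05 and 0.02. In TFD the medians were -0.51 and 0.01. The 3 comparisons share the WT libraries, so their agreement is not independent.

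**Figure D1:**
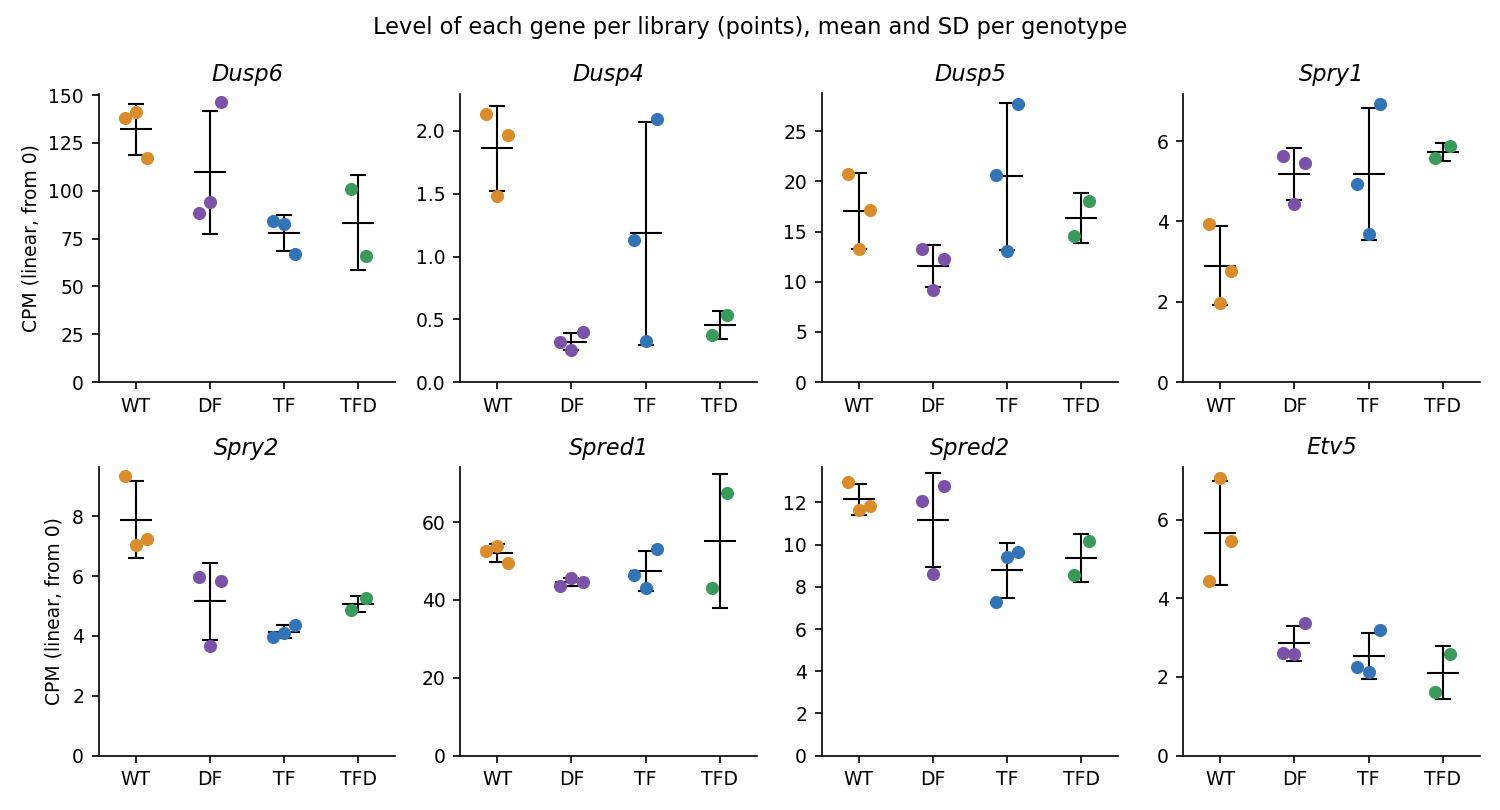
Level of each feedback gene in CPM on a linear axis from 0, with 1 point per library, and the mean and SD per genotype as bars. The 8 mutant libraries lie below the 3 WT libraries for Etv5 and Spry2, whereas for Dusp4 TF replicate 3, at 2.10 CPM, reaches the WT range of 1.49 to 2.14.

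Dusp6, on chromosome 10 of mm10 from 99263231 to 99267489 (plus strand), encodes a cytoplasmic phosphatase that is highly selective for ERK, and it had the highest mean level of the 8 per unit of exon length in every genotype. Its level was 138, 141 and 117 CPM in WT, 88.4, 94.2 and 146 in DF, 84.0, 82.7 and 66.9 in TF, and 101 and 65.7 in TFD. All TF and TFD libraries lay below all WT libraries, while DF replicate 3 was the highest of the 11. The summed level of 9 maturing neutrophil markers was also highest in DF replicate 3 (80200 CPM) and lowest in TFD replicate 2 (22300 CPM), the library with the lowest Dusp6. All 9 markers had a log2 fold change below 0 in TF and in TFD versus WT, of which 3 and 1 were called, and 6 of 9 had one above 0 in DF, of which 0 were called. The part of this in the Dusp6 values was not tested. Versus WT, Dusp6 fell in TF by 0.76 on the log2 scale (SE 0.20, adjusted p = 0.0108 in edgeR) and in TFD by 0.66 (SE 0.22, adjusted p = 0.0463). In DF the log2 fold change was -0.27 (SE 0.20, adjusted p = 0.30), and it was -0.56 without DF replicate 3 (adjusted p = 0.0303), -0.15 without DF replicate 1 (adjusted p = 0.619) and -0.17 without DF replicate 2 (adjusted p = 0.591). The TF call held with each of the 11 libraries left out. The TFD call of Dusp6 did not hold without WT replicate 1, 2 or 3, DF replicate 2, TF replicate 1 or 2, or TFD replicate 2, nor with the replicate numbers as a block (adjusted p = 0.075). Its log2 fold change in TFD was -0.38 without TFD replicate 2 (adjusted p = 0.311) and -1.01 without TFD replicate 1 (adjusted p = 0.0206). In the mean of the mutants Dusp6 fell by 0.56 (SE 0.16, adjusted p = 0.0134), with an adjusted p of 0.0627 without WT replicate 2.

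The 250 bases before the start site of each gene were read from RefSeq promoters of GRCm38.p6, which hold 7 of the 8 genes. They were searched on both strands for the Capicua octamers TGAATGAA, TGAATGGA, TCAATGAA and TCAATGGA. Also searched were the ETS word CCGGAA, the AP-1 site TGANTCA and the cAMP response element TGACGTCA. CCGGAA is a longer form of the ETS site, and the shorter core GGAA was not searched. Capicua octamers were present in the windows of Dusp6 and Spry2 and in 3.19% of all 32851 promoters of the same length. The ETS word CCGGAA was present in 12% of all promoters, the AP-1 site in 6.75% and the cAMP response element in 1.55%. None of these was present in a window of the 7 genes. The Dusp6 window, shown for the octamer in capitals, lies at chr10:99262981-99263230 on the plus strand. The octamer is the minus strand word read as TCCATTGA on the gene strand, and begins at base -24 from the start site.
Dusp6: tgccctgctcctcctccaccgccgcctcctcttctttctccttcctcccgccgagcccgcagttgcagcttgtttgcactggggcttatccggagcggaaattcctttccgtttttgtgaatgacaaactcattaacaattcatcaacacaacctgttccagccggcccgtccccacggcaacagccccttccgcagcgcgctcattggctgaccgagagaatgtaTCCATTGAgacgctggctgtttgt
A match is a description of the letters only, and no binding was measured here.

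Dusp4, on chromosome 8 from 34807610 to 34819894 (plus strand), encodes a nuclear phosphatase of ERK and other MAP kinases and had the lowest mean level of the 8 per unit of exon length in every genotype. Its level was 2.14, 1.49 and 1.97 CPM in WT (26, 12 and 22 reads), and each DF library held 4 reads, or 0.318, 0.257 and 0.396 CPM. In TF it was 1.13, 0.327 and 2.10 CPM (14, 4 and 23 reads), and in TFD 0.375 and 0.535 CPM (6 reads each). All DF and TFD libraries lay below WT, whereas the TF libraries spread from the DF level to the WT level. Dusp4 fell by 2.54 on the log2 scale in DF (SE 0.58, adjusted p = 0.00443, edgeR) and by 2.05 in TFD (SE 0.62, adjusted p = 0.0268). In TF the log2 fold change was -0.68 (SE 0.48, adjusted p = 0.289). It was -1.36 without TF replicate 3 (adjusted p = 0.0367) and -0.23 without TF replicate 2 (adjusted p = 0.694). The DF call of Dusp4 held with each library left out, with log2 fold changes of -2.71 to -2.38. The TFD call was lost without WT replicate 1 or 3 or TFD replicate 1 or 2 (adjusted p up to 0.154).

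Dusp5, on chromosome 19 from 53529318 to 53541322 (plus strand), encodes a nuclear phosphatase for ERK. Its level was 20.8, 13.2 and 17.1 CPM in WT, 13.3, 9.20 and 12.3 in DF, 20.7, 13.1 and 27.7 in TF, and 14.6 and 18.1 in TFD. The WT range overlapped each mutant genotype. Relative to WT, Dusp5 had a log2 fold change in DF of -0.57 (SE 0.26, adjusted p = 0.0959, edgeR). The TF value was 0.26 (SE 0.25, adjusted p = 0.448) and the TFD value -0.07 (SE 0.28, adjusted p = 0.877). The DF value passed the threshold in a fit of DF and WT alone (adjusted p = 0.0215), and without TF replicate 2 or 3 (lowest adjusted p 0.0436).

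Spry1, on chromosome 3 from 37639947 to 37644599 (plus strand), encodes a membrane-associated inhibitor of receptor tyrosine kinase signaling, and was the only one of the 8 called higher. Its level was 3.94, 1.98 and 2.78 CPM in WT, from 16 to 48 reads. It was 5.64, 4.44 and 5.44 CPM in DF, 4.93, 3.68 and 6.93 in TF, and 5.57 and 5.88 in TFD. All DF and TFD libraries lay above WT, and TF replicate 2 lay within the WT range. Spry1 rose by 0.80 on the log2 scale in DF (SE 0.29, adjusted p = 0.0434, edgeR) and by 0.81 in TF (SE 0.29, adjusted p = 0.0466). The rise was 0.95 in TFD (SE 0.31, adjusted p = 0.0396) and 0.85 in the mean of the mutants (SE 0.25, adjusted p = 0.0151). These calls were close to the threshold. The DF call was lost with DESeq2, library totals or RLE factors (adjusted p up to 0.0758), and the TF call with library totals, RLE factors or a fit of TF and WT alone (adjusted p up to 0.0913). The TF call of Spry1 was kept only without WT replicate 1 or TF replicate 2, and without TF replicate 3 the log2 fold change was 0.54 (adjusted p = 0.165). Without WT replicate 2 the adjusted p of Spry1 was 0.146 in DF, 0.154 in TF, 0.122 in TFD and 0.0789 in their mean, and without WT replicate 3 it was 0.126, 0.119, 0.0996 and 0.0639. The DF call was also lost without DF replicate 1, 2 or 3, TF replicate 1 or TFD replicate 2, and the TFD call without DF replicate 1 or 2, TF replicate 1, or TFD replicate 1 or 2.

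Spry2, on chromosome 14 from 105891947 to 105896819 (minus strand), encodes a second inhibitor of this family and went the other way. It was 9.36, 7.05 and 7.25 CPM in WT, 5.95, 3.67 and 5.84 in DF, 3.96, 4.09 and 4.38 in TF, and 4.88 and 5.26 in TFD. Every mutant library lay below every WT library. Spry2 fell by 0.63 on the log2 scale in DF (SE 0.22, adjusted p = 0.0382, edgeR) and by 0.93 in TF (SE 0.22, adjusted p = 0.00654). In TFD the log2 fold change was -0.64 (SE 0.25), with an adjusted p of 0.0714 (0.0495 without DF replicate 2). The TF call held in each setting and with each library left out. The DF call of Spry2 was lost with a term for sex (adjusted p = 0.0514) and without WT replicate 1 or 2, DF replicate 2 or TF replicate 1 (adjusted p up to 0.161). The promoter windows of the Sprouty genes are shown since the members moved in opposite directions. That of Spry2, at chr14:105896820-105897069 on the minus strand, holds the octamer in capitals, which begins at base -54, and that of Spry1, at chr3:37639697-37639946 on the plus strand, holds no word of the 4 kinds searched.
Spry2: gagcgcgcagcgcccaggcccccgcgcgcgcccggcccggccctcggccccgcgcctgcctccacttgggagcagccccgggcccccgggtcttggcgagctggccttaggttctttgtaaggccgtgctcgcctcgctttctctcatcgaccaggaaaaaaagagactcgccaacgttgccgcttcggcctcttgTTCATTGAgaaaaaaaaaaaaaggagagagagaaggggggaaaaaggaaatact
Spry1: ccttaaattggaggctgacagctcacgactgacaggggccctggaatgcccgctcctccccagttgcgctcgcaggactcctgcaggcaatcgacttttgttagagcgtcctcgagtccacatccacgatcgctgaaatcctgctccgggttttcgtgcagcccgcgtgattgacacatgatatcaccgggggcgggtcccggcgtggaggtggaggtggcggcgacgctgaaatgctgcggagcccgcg

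The Spred proteins also sit at the membrane, and Spred1 brings the RAS inactivator neurofibromin there. Spred1, on chromosome 2 from 117121071 to 117182277 (plus strand), was 52.6, 53.8 and 49.4 CPM in WT, 43.7, 45.8 and 44.6 in DF, 46.5, 43.0 and 53.1 in TF, and 43.0 and 67.4 in TFD. The DF libraries lay below WT within a narrow range, and the TFD libraries lay on either side of it. For DF, TF and TFD versus WT its log2 fold changes were -0.22, -0.13 and 0.08 (edgeR adjusted p = 0.258, 0.515 and 0.748). The 95% interval of the Spred1 difference ran from -0.53 to 0.10 in DF, from -0.44 to 0.19 in TF and from -0.27 to 0.43 in TFD. Spred2, on chromosome 11 from 19924442 to 20022597 (plus strand), was 12.97, 11.6 and 11.8 CPM in WT, 12.1, 8.62 and 12.8 in DF, 7.27, 9.41 and 9.67 in TF, and 8.57 and 10.2 in TFD. The TF and TFD libraries of Spred2 lay below WT, but neither difference passed the test. For DF, TF and TFD its log2 fold changes were -0.13, -0.47 and -0.38 (edgeR adjusted p = 0.589, 0.0632 and 0.191), and without DF replicate 2 the adjusted p in TF was 0.0483.

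Etv5, on chromosome 16 from 22381313 to 22439570 (minus strand), encodes an ETS transcription factor of the PEA3 group. Its level was 4.43, 7.05 and 5.46 CPM in WT (54 to 61 reads), 2.62, 2.57 and 3.37 in DF, 2.26, 2.13 and 3.19 in TF, and 1.63 and 2.58 in TFD (26 to 40 reads in the mutants). The highest mutant library, DF replicate 3, lay below the lowest WT library. Etv5 fell by 0.98 on the log2 scale in DF (SE 0.28, adjusted p = 0.014, edgeR), by 1.15 in TF (SE 0.28, adjusted p = 0.00724) and by 1.43 in TFD (SE 0.32, adjusted p = 0.00607). Its fall of 1.19 in the mean of the mutants had the smallest adjusted p of the 8 genes (0.00102). The TF call held with each library left out. The DF call of Etv5 was lost without WT replicate 2 or DF replicate 2 (adjusted p up to 0.0642) and the TFD call without TFD replicate 1 (adjusted p = 0.0678).

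**Figure D2:**
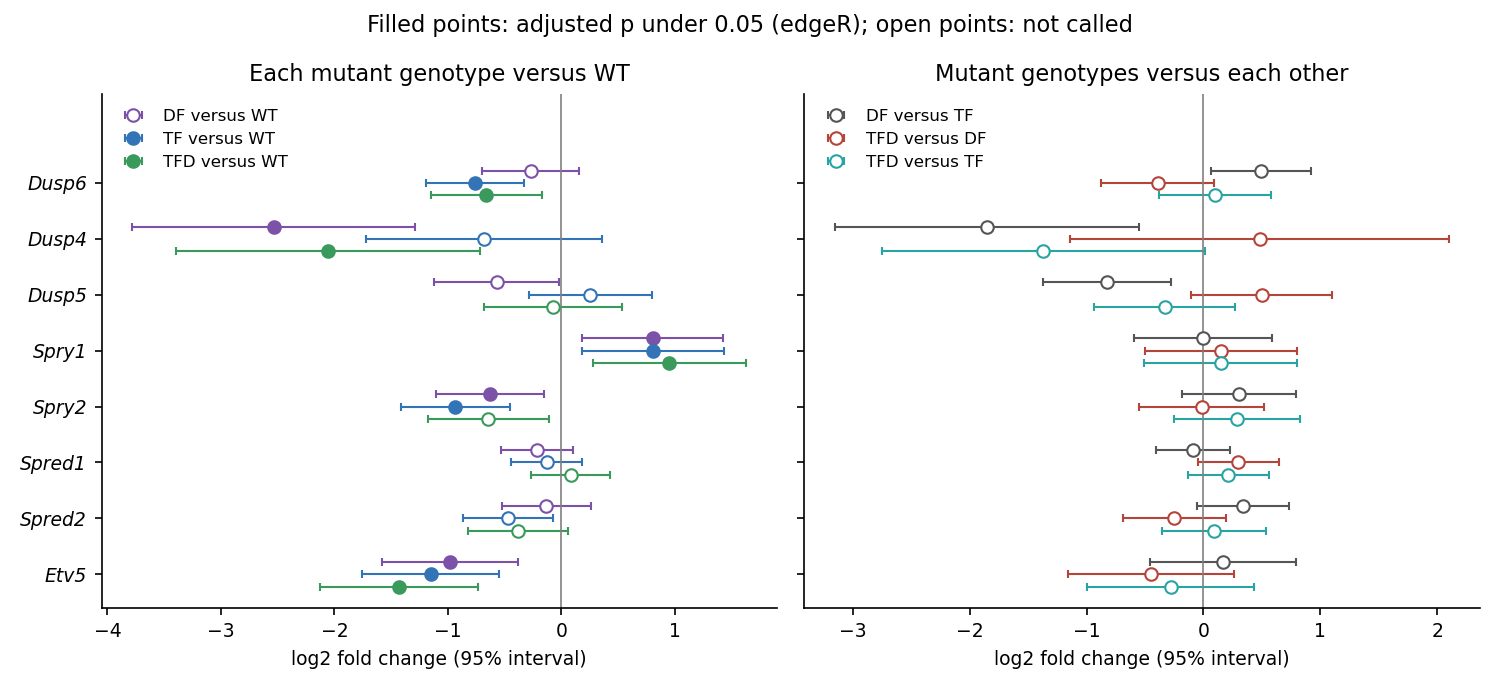
Log2 fold change with its 95% interval for the 8 genes, for each mutant genotype versus WT on the left and between mutants on the right, with filled points for an adjusted p under 0.05. Spry1 lies right of 0 and Etv5 left of 0 in all 3 genotypes, and no point on the right panel is filled.

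The genotypes were next compared by whether their libraries overlapped. Between DF and WT the libraries of 5 of the 8 genes did not overlap (Dusp4, Spry1, Spry2, Spred1 and Etv5), between TF and WT those of 4 (Dusp6, Spry2, Spred2 and Etv5), and between TFD and WT those of 6 (all but Dusp5 and Spred1). Among all genes tested, 51.3%, 49.0% and 49.5% did not overlap in these comparisons. Spry2 and Etv5 were the only members of the 8 in which no mutant library overlapped WT, which held for 27.8% of all genes tested.

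The mutants were then compared with each other. In DF versus TF, 0 of the 8 genes were called by edgeR, and 3 had an unadjusted p under 0.05, as did 2316 of the 12175 genes tested. These were Dusp5 (log2 fold change -0.83, SE 0.25, adjusted p = 0.0778), Dusp4 (-1.85, SE 0.60, adjusted p = 0.095) and Dusp6 (0.49, SE 0.20, adjusted p = 0.191). All 3 DF libraries lay above all 3 TF libraries for Dusp6, and 25.9% of all genes tested did not overlap between DF and TF. The libraries of Dusp4 and Dusp5 overlapped there. DESeq2 called Dusp5 (adjusted p = 0.0212), and limma called none. In TFD versus DF and TFD versus TF, 0 of the 8 genes were called by edgeR, DESeq2 or limma, and 0 had an unadjusted p under 0.05 in edgeR, against 1727 and 1068 of the 12175 genes tested. Both TFD libraries lay above all DF libraries for Dusp5 and above all TF libraries for Spry2, where 29.1% and 22.3% of all genes tested did not overlap. For Etv5 the 95% interval of the difference ran from -1.16 to 0.26 in TFD versus DF and from -0.99 to 0.44 in TFD versus TF. For Dusp6 it ran from -0.87 to 0.09 and from -0.38 to 0.58. These intervals include no change as well as sizable differences, so they do not show that the genotypes were alike.

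The level of each gene per kilobase of exon (RPKM) allowed the genes to be ranked against each other. In WT the mean log2 RPKM was 5.56 for Dusp6, 3.86 for Dusp5, 2.87 for Spred1, 2.08 for Spred2, 1.91 for Spry2, 0.54 for Etv5, 0.17 for Spry1 and -0.38 for Dusp4. Dusp6, Dusp5 and Spred1 were each separated from the next gene in every WT library, whereas Spred2 and Spry2 overlapped, as did the neighbors Etv5 and Spry1, and Spry1 and Dusp4. The deposited start of Dusp5 differs from that of RefSeq, so its level per length depends on which gene model is used. In DF, TF and TFD, Spry1 stood above Etv5 in each library, by a mean of 1.47 in DF and 2.09 in TFD on the log2 RPKM scale. Spry1 lay below Spry2 in every WT library, and both overlapped in each mutant genotype.

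**Figure D3:**
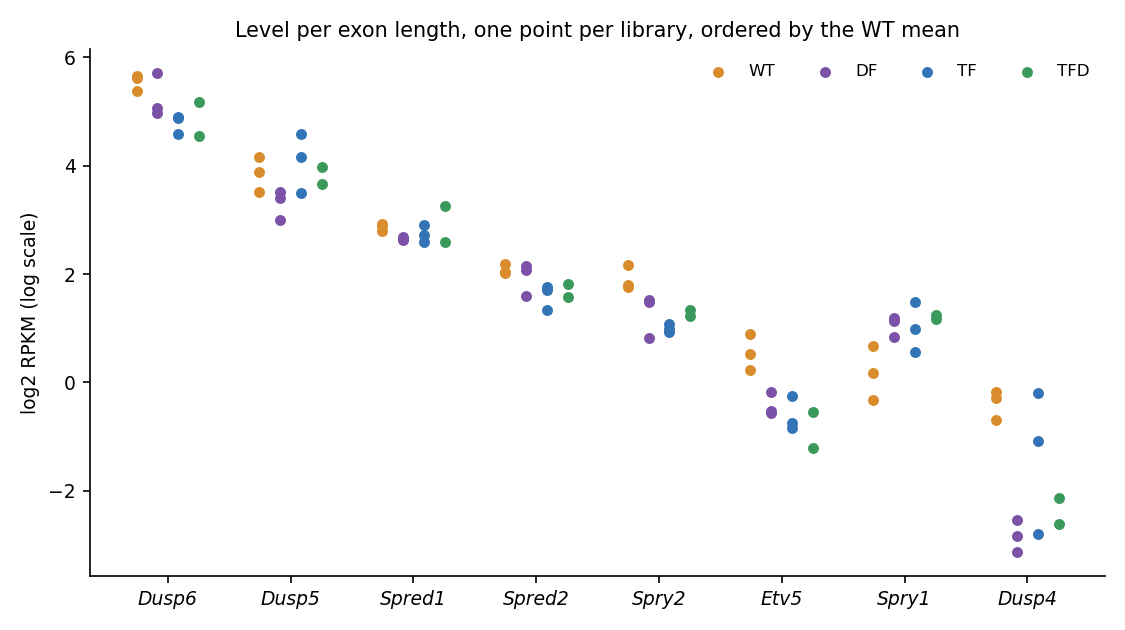
Log2 RPKM of the 8 genes, 1 point per library, in the order of the WT means, with genotypes side by side. The WT points of Spry1 and Etv5 overlap, with means of 0.17 and 0.54, and Spry1 lies above Etv5 in all mutant libraries.

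Genes of the same pathway were taken from lists written by role, and counts are for the mean of the mutants versus WT unless stated. Among all genes tested, 22.4% were called higher and 19.7% lower there, which stands beside each list count. A gene called in the mean was not always called in each genotype. Of 6 other MAP kinase phosphatases tested, 3 fell and 1 rose. Dusp8, which acts on stress kinases, fell by 1.55 on the log2 scale (SE 0.29, adjusted p = 0.000987, edgeR), and Dusp16 fell by 1.21 (SE 0.24, adjusted p = 0.00155). Dusp8 averaged 4.02 CPM in WT and 0.710, 2.36 and 1.53 in DF, TF and TFD. Dusp7, a relative of Dusp6, rose by 0.68 (SE 0.18, adjusted p = 0.00987), and was called on its own only in DF. Of 7 other feedback inhibitors tested, 1 fell and 2 rose. Lrig1, a membrane protein that promotes receptor degradation, fell by 2.28 (SE 0.25, adjusted p = 1.8e-05), with means of 6.66 CPM in WT and 0.735, 2.14 and 1.68 in DF, TF and TFD. Spred3, the third Spred gene, rose by 1.20 (SE 0.36, adjusted p = 0.0182, edgeR). It averaged 0.684 CPM in WT and 1.24, 1.75 and 1.75 in DF, TF and TFD, and was not called in DF (adjusted p = 0.113). Sh2b3, an adaptor that restrains cytokine receptors, rose by 0.37 (SE 0.11, adjusted p = 0.017) and was called on its own only in DF.

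Of 15 other transcription factors and targets downstream of ERK, 3 fell and 2 rose. The immediate early genes Ier2 and Jun rose by 0.41 and 0.32 on the log2 scale (adjusted p = 0.0364 each, edgeR). Jun was called on its own only in TFD (adjusted p = 0.0412), and Ier2 in no single genotype (lowest adjusted p 0.0552). Ccnd1, which encodes cyclin D1, fell by 1.43 (SE 0.35, adjusted p = 0.0061). The fall of Ccnd1 was 2.89 in DF (adjusted p = 0.000692) and 1.53 in TFD (adjusted p = 0.0434), while in TF its log2 fold change was 0.14 (adjusted p = 0.819). Phlda1 fell by 1.19 (SE 0.21, adjusted p = 0.000765), and it was called in each mutant genotype. The median log2 fold change of this list was 0.0033, against 0.028 over all genes.

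Upstream of ERK, 4 of 15 receptors and adaptors rose and 4 fell. Flt3 rose by 1.42 (SE 0.25, adjusted p = 0.000567) and Csf1r, the receptor of monocytes and macrophages for CSF1, by 1.33 (SE 0.11, adjusted p = 2.0e-06). The docking protein gene Gab1 fell by 0.79 (SE 0.14, adjusted p = 0.000692) and the RAS exchange factor gene Sos1 by 0.60 (SE 0.11, adjusted p = 0.00113). Of 18 RAS genes, exchange factors and GTPase activators, 2 rose and 6 fell, against 22.4% and 19.7% of all genes tested. Both that rose, Rasa4 by 1.58 (SE 0.15, adjusted p = 7.05e-06) and Rasa3 by 0.65 (SE 0.089, adjusted p = 0.000102), encode GTPase activators that turn RAS or its relatives off. Rasgrp3, an exchange factor known for its role in B cells, fell by 2.52 (SE 0.40, adjusted p = 0.000302, edgeR). The GTPase activator Rasal1 fell by 2.41 (SE 0.27, adjusted p = 2.42e-05, edgeR). Rasal1 averaged 3.08 CPM in WT and 0.474, 0.880 and 0.468 in DF, TF and TFD.

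Of 12 genes for RAF, MEK, ERK and scaffolds, 1 rose and 3 fell, with Map2k1 (MEK1) higher by 0.35 (SE 0.081, adjusted p = 0.00428, edgeR), Braf at -0.37 (SE 0.10, adjusted p = 0.0129) and the scaffold Shoc2 at -0.31 (SE 0.084, adjusted p = 0.0103). Braf was called on its own only in TF, and Shoc2 in TF and TFD. Of 16 ERK effectors and nuclear factors, 3 rose and 4 fell. The ETS repressor gene Elk3 rose by 0.82 (SE 0.11, adjusted p = 6.94e-05) and the kinase gene Rps6ka1 by 0.44 (SE 0.10, adjusted p = 0.00519), while Ets2 fell by 1.11 (SE 0.22, adjusted p = 0.00138) and Ets1 by 1.09 (SE 0.14, adjusted p = 5.67e-05). Cic, which encodes Capicua, was the third that rose, by 0.35 (SE 0.11, adjusted p = 0.0243, edgeR). It averaged 116 CPM in WT and 137, 152 and 156 in DF, TF and TFD. In DF alone Cic was not called (log2 fold change 0.24, adjusted p = 0.177).

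**Figure D4:**
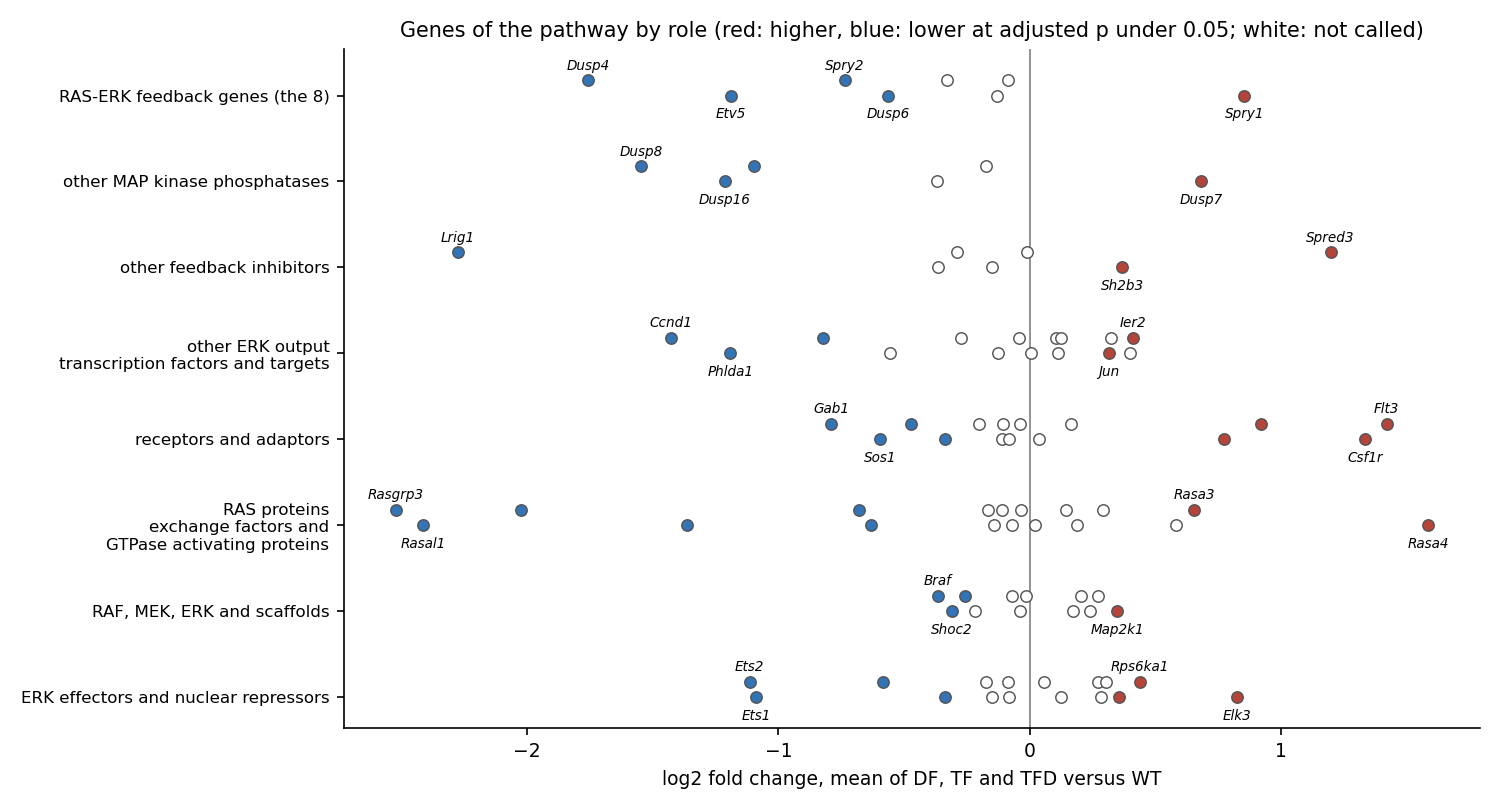
Log2 fold change of the mean of DF, TF and TFD versus WT for the 8 feedback genes and 7 lists of pathway genes, with red points for genes called higher, blue for lower and white for genes not called. Each list holds genes that rose and genes that fell, and the points of the RAF, MEK, ERK and scaffold list that were called lie between -0.37 and 0.35.

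These are bulk measurements, in which fewer cells of a type and less RNA per cell cannot be told apart, and the mix of cell types differed between the genotypes. Of 10 monocyte and macrophage markers, 8 rose in the mean of the mutants and 0 fell, and their summed level was 1890 to 1980 CPM in WT, 5520 to 6270 in DF, 5150 to 6430 in TF and 5450 to 5470 in TFD. All 10 B lineage markers fell in each mutant genotype, from a summed 538 to 700 CPM in WT to 15.2 to 26.0 in DF, 21.3 to 82.5 in TF and 16.8 to 18.8 in TFD, and Pax5, Vpreb1, Igll1 and Rag1 were at 0 in at least 1 library. All 9 erythroid markers tested fell in the mean of the mutants, from 2040 to 2590 CPM in WT to 330 to 460 in DF, 641 to 1840 in TF and 586 to 778 in TFD. Of 7 T lineage markers 5 fell (48.1 to 53.9 CPM in WT, 16.6 to 27.6 in DF, 25.1 to 64.4 in TF, 16.04 to 22.1 in TFD), and of 6 NK markers 5 fell (28.3 to 31.6, 8.97 to 12.97, 12.8 to 44.3 and 9.63 to 12.7 CPM). Stem and progenitor markers were at 168 to 188 CPM in WT, 310 to 333 in DF, 260 to 341 in TF and 305 to 367 in TFD, with 4 of 8 higher and 1 lower. Markers of maturing neutrophils, 2 of 9 lower, summed to 50200 to 62900 CPM in WT, 56700 to 80200 in DF, 35700 to 46000 in TF and 22300 to 45000 in TFD. Early granulocyte markers, 3 of 6 higher, summed to 3020 to 3180 CPM in WT, 4730 to 6550 in DF, 2780 to 4540 in TF and 3980 to 5780 in TFD. Of 6 megakaryocyte markers 0 were called in the mean of the mutants, and of 6 eosinophil, basophil and mast cell markers 1 was lower. The highest of each TF range of the B lineage, erythroid, T lineage and NK sums was TF replicate 3, which also had the highest level of the TF libraries for 7 of the 8 feedback genes and the lowest for Dusp6. The part of these differences in cell mix in the changes of the feedback genes was not tested.

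**Figure D5:**
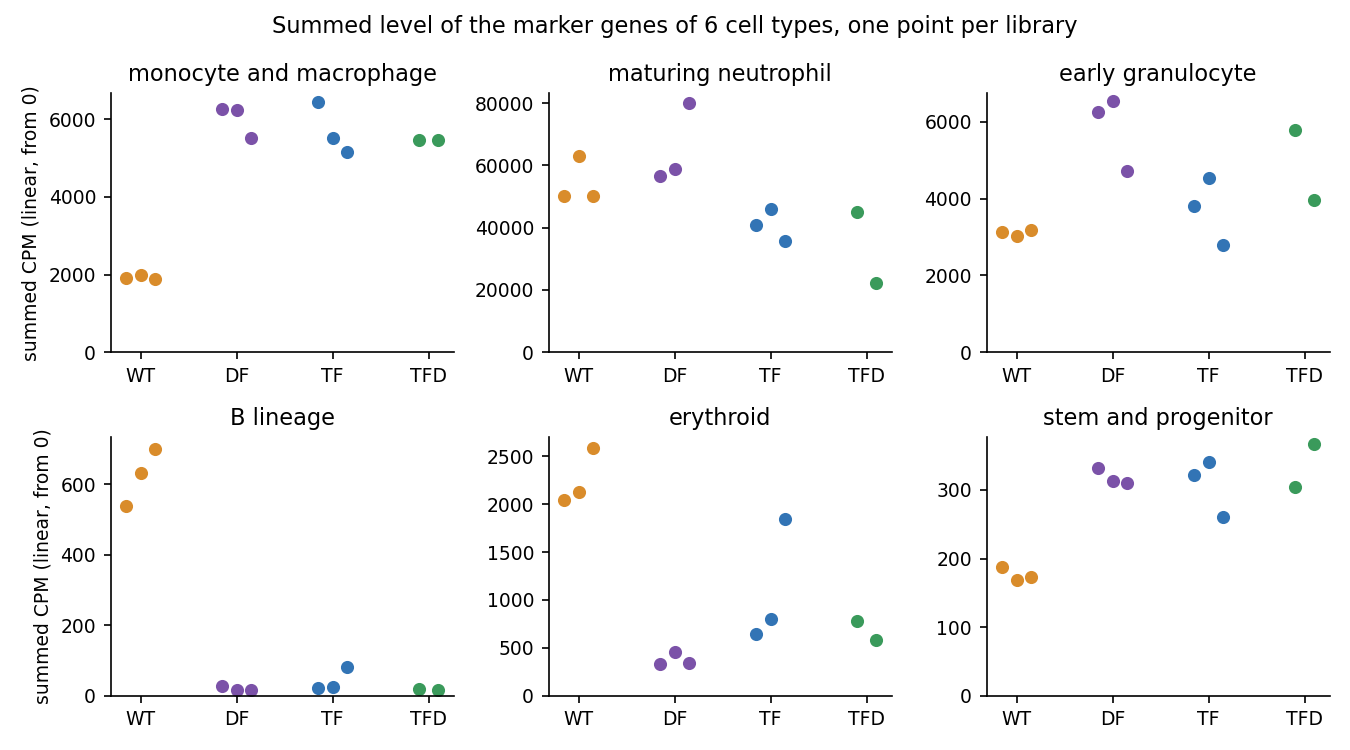
Summed CPM of the marker genes of 6 cell types on linear axes from 0, 1 point per library. The B lineage sum lies between 538 and 700 in WT and at 82.5 or below in every mutant library, and TF replicate 3 has the highest erythroid sum of the mutants, 1840.

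For each feedback gene, the tested genes with the most similar profile over the 11 libraries were listed by Pearson's r of log2 CPM, as a description with no test. The libraries share the difference between WT and the mutants, so the 11 points are not independent of genotype. For Dusp6 they were Slc2a3, Sept1 and Nedd9 (r = 0.97 each), and for Dusp4 they were Pml (0.97), Ntn4 and Sema4b (0.96 each). For Dusp5 they were Wdr91, Kbtbd11 and Ddx24 (0.94, 0.93 and 0.93). For Spry1 they were Ndst2, Prkch and Ube2r2 (0.98, 0.94 and 0.92), and for Spry2 they were Zfand2a (0.92), Zhx2 and Usp54 (0.91 each). For Spred1 they were Ctdnep1, Proser1 and Eps15l1 (0.91 each), for Spred2 Rbsn, Tbc1d25 and Rcor1 (0.90, 0.87 and 0.84), and for Etv5 Slc37a3, Ube2h and Fcrl1 (0.96, 0.96 and 0.95).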

How the data were processed

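Total RNA of BM cells was depleted of globin mRNA and sequenced from stranded libraries. After FastQC, the authors mapped reads with STAR to mm10, and featureCounts assigned the unique alignments to refGene genes. Their methods name a filter of more than 0.5 CPM in more than 3 samples, which not every gene of the table passes in the 11 libraries used here. Tool versions and whether counting used strand are not given in the sources used here. The deposited values are raw counts per gene and log2 CPM, which edgeR (prior count 0.25) returned to within 5e-09. The deposited gene length in bases is a further column. Of the 12 samples listed, 11 were analysed here.

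Samples were grouped by their labels. The same filter on the 11 libraries left 12175 genes and removed 24. They were tested with edgeR 4.0.16 in R 4.3.3, using TMM factors (0.924 to 1.043), the quasi-likelihood F test on a mean per genotype and Benjamini-Hochberg adjustment at 0.05. Library totals were 8274153 to 15900904, and Dusp4 rested on 4 to 26 reads per library, so counting error bears on it most. RPKM used the deposited length. Procedures were tested on simulated data. Figures were drawn with matplotlib 3.10.9 in Python 3.11.15.

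The alternatives were DESeq2 1.42.0, limma 3.58.1 on log2(CPM + 1), library totals, RLE factors, no filter, filterByExpr (identical to no filter, as it retained all 12199 genes), a fit of only the groups compared, replicate numbers as a block, a term for the 3 libraries with at least 10000 Xist reads (1 WT, 1 TF and 1 TFD, taken as females), and each library left out.

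The 8 genes and all lists were chosen with earlier results of these data known. The genes named were the 8 members, the targeted genes, the 2 largest rises and 2 largest falls called in the mean of the mutants per list, and the 3 nearest profiles of each member. Cic was added after its values were seen. Promoter windows came from RefSeq (GRCm38.p6). Protein sequences were not used here.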

Additional observations from a re-analysis of the deposited data

How the results depend on the processing

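Under scalings, tests and filters, the direction of each feedback gene in a mutant versus WT was kept, except that Dusp5 in TFD was 0.074 with the replicate block. Between mutants, near-zero values changed sign. The log2 fold change of Spry1 in DF versus TF was 0.027 with limma, 0.024 with the replicate block and 0.10 with the Xist term. That of Spry2 in TFD versus DF was 0.014 with DESeq2, 0.012 with RLE factors, 0.0024 with limma, 0.080 with library totals and 0.023 with the replicate block. With libraries left out, log2 fold changes versus WT ran from -0.27 to 0.030 for Spred2 in DF, -0.024 to 0.50 for Dusp5 in TF, -0.23 to 0.094 for Dusp5 in TFD, -0.27 to 0.38 for Spred1 in TFD, -0.28 to 0.023 for Dusp5 and -0.22 to 0.0096 for Spred1 in the mean of the mutants. Between mutants they ran from -0.20 to 0.26 for Spry1 in DF versus TF, -0.22 to 0.12 for Spry2 and -0.024 to 0.59 for Spred1 in TFD versus DF, and in TFD versus TF from -0.25 to 0.39 for Dusp6, -0.049 to 0.41 for Spry1, -0.13 to 0.50 for Spred1, -0.031 to 0.21 for Spred2 and -0.62 to 0.038 for Etv5.

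The number of feedback genes called in DF versus TF was 1 with DESeq2. With libraries left out the number called ran from 1 (without WT replicate 2 or DF replicate 2) to 5 (without TF replicate 2 or 3) in DF versus WT, from 1 (without WT replicate 3 or TFD replicate 1 or 2) to 4 in TFD versus WT, from 3 (without WT replicate 2) to 5 in the mean of the mutants versus WT, from 0 to 2 (without TF replicate 2) in DF versus TF and from 0 to 1 (Spred1, without TFD replicate 1) in TFD versus DF. Among all genes tested, TFD versus DF gave 258 calls with DESeq2, 135 in a fit of only those groups and 42 with the replicate block, and TFD versus TF gave 131 with DESeq2, 4 with limma, 0 in a fit of only those groups and 22 with the Xist term. With libraries left out, the counts over all genes ran from 3413 (without DF replicate 1) to 4887 (without TFD replicate 1) in DF versus WT, from 2853 (without TF replicate 1) to 4514 (without TFD replicate 1) in TF versus WT, from 2357 (without TFD replicate 1) to 3443 (without TF replicate 3) in TFD versus WT and from 3789 (without WT replicate 2) to 5378 (without TFD replicate 2) in the mean of the mutants versus WT. They ran from 169 (without DF replicate 2) to 934 (without TF replicate 2) in DF versus TF, from 0 to 387 in TFD versus DF and from 2 to 75 in TFD versus TF, with both highest counts without TFD replicate 1. There the lone TFD library is assumed to vary like the other groups. The causes were not tested.

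Deviations from the genotype means correlated at -0.30 to 0.25 between libraries of the same replicate number (15 pairs). Between libraries of different numbers they correlated at -0.22 to 0.30. Deviations cancel out within a genotype, which ties these values to each other. The check therefore cannot decide whether the numbers pair the samples. The block ended the call of Dusp6 in TFD (adjusted p = 0.075) and no other call of a feedback gene versus WT. Depth limits Dusp4 (4 to 26 reads per library), Etv5 (26 to 61) and Spry1 (16 to 89) most, and 2 TFD libraries limit each TFD comparison.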
